A study of Mus musculus with 2 samples.

Results

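Mir486 and Mir3107 are a pair of mouse miRNA genes whose hairpins lie over each other on opposite strands within the gene Ank1. They were taken by name, as the rows of the deposited count files whose gene identifiers carry these symbols in GENCODE M21, which gave 2 of 2202 miRNA gene rows. The rule that picked the rows did not use their counts, but earlier results of these data were known when the genes were chosen. Counts came from microRNA sequencing of gastrocnemius, a muscle of the calf. The donors were B6CASTF1/J males at 25 days of age, an F1 hybrid of a laboratory strain and the CAST strain. There is 1 group, with no treatment or mutant allele named, and it holds 2 libraries, replicates 1 and 2. The labels name separate males under a shared donor identifier. Whether the libraries come from separate mice is therefore not certain, and the spread between them may be technical.

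miRNAs are short RNAs cut from a hairpin-shaped precursor, and they repress messenger RNAs that pair with their seed bases. miR-486 is known as a miRNA enriched in skeletal and heart muscle and in red cell precursors, and it represses Foxo1, a transcription factor that promotes muscle wasting. Its host Ank1 encodes ankyrin proteins that tie the membrane to the cytoskeleton in red cells, and a short form, small ankyrin, from an internal promoter, which sits in the sarcoplasmic reticulum of striated muscle. The hairpin is close to a palindrome, so the RNA of the other strand can fold into a hairpin as well. The miRNA names mir-486a and mir-486b are used for Mir486 and Mir3107, and their mature products from the 5′ arm are annotated with the same sequence. Of the 2 genes, 0 were matched in the RefSeq miRNA sequence table (GRCm38.p6), and no sequence is printed.

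In mm10, Mir486 (ENSMUSG00000070084.3) was annotated on the plus strand at chr8:23142555-23142682, over 128 bases. Mir3107 (ENSMUSG00000106471.1) was annotated on the minus strand at chr8:23142573-23142662, over 90 bases. All of Mir3107 thus lay inside Mir486 and covered 70.3% of it, leaving a flank of 18 bases on the left and of 20 bases on the right that belonged to Mir486 alone. Each gene lay in an intron of a host on its own strand. Ank1 (chr8:22974844-23150497, plus strand) had 15 annotated transcripts that span the hairpins, and the hairpins were intronic in each. It was the last intron in 14 of them, and the exception was a transcript marked for nonsense-mediated decay. In the Ank1 transcript that starts furthest upstream, the intron ran from exon 42 to exon 43, over 6560 bases, with the start of Mir486 834 bases into it. Of the 15 transcripts, 4 began at most 3525 bases and at least 2462 bases upstream of Mir486. These short Ank1 transcripts started in the same 3′ part of the gene as the miRNA, whereas the other 11 started much further upstream. On the minus strand, the antisense RNA gene Gm15816 (chr8:23138794-23149585) had 6 exons, and Mir3107 lay in its intron between exon 3 and exon 4.

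**Figure D1:**
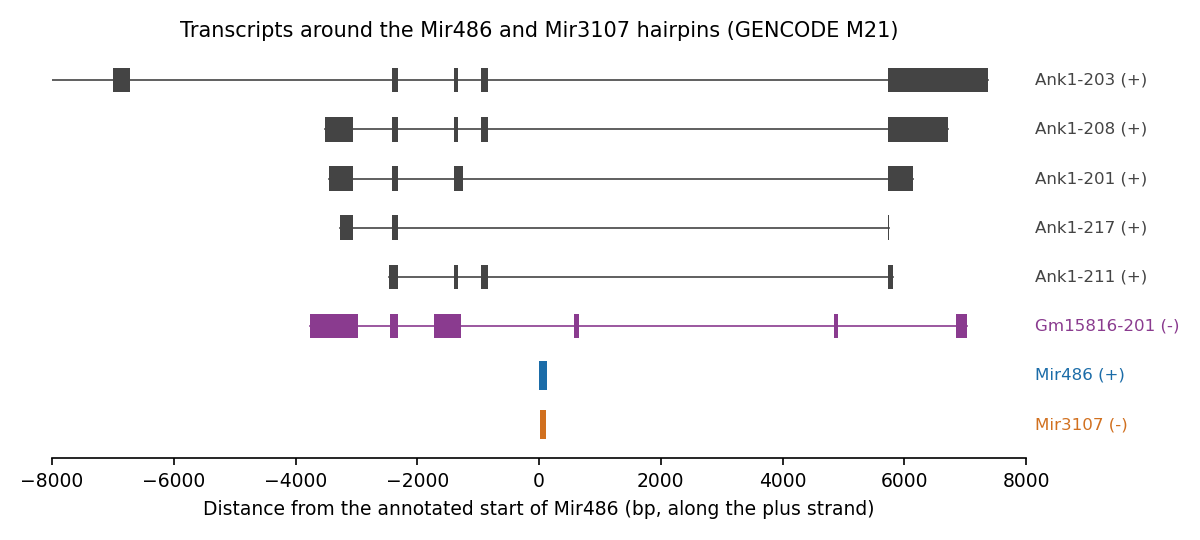
Annotated exons (boxes) and introns (lines) of the Ank1 transcript that starts furthest upstream, the 4 short Ank1 transcripts and the antisense transcript Gm15816-201, with the Mir486 and Mir3107 hairpins below, against distance in base pairs from the annotated start of Mir486. Both hairpins fall within introns, and the short Ank1 transcripts start between 2462 and 3525 bases before Mir486.

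The libraries held 1491341 and 2028332 gene counts. Of all reads, 69.8% and 71.8% aligned to more than 1 locus, and these are in no gene row. Each value here is for reads placed at 1 locus, and how many of the other reads came from the miR-486 hairpins was not analysed here. Markers of striated muscle summed to 54271 CPM (counts scaled to 1000000 gene counts) in replicate 1, against 47740 in the other library, and most of this came from Mir206. In reads placed at 1 locus, the endothelial marker Mir126a stood higher, at 78275 and 87525 CPM. So did the smooth muscle markers Mir143 and Mir145a, which summed to 58854 and 78690 CPM. The striated muscle list holds copies of miR-1 and miR-133, and reads that aligned to several copies are not in its sum. The order of these sums over all reads was therefore not measured. Of the 6 rows of the neuronal miRNAs miR-9 and miR-124, 5 had no counts in either library, beside 1632 of all 2202 rows. Both miRNAs have several gene copies, so reads that aligned to several copies are not in these rows.

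Most reads placed at the locus lay on the strand of Ank1. The Mir486 row held 1227 counts in replicate 1 and 1372 in replicate 2 on its own strand. The Mir3107 row held 43 and 25 counts on its own strand. Counts of Mir486 were thus 28.5-fold and 54.9-fold those of Mir3107 in the same libraries. This fold, and every share of the strands given below, covers reads placed at 1 locus only. A read whose sequence is found on both strands aligns to more than 1 place and is not in these rows. On the opposite strand the values changed places: the Mir486 row held 43 and 25 counts, and the Mir3107 row 1227 and 1372. The counting rule is not given in the sources used here. If any overlap with a gene is counted, a read within the flanks belonging to Mir486 alone would break this equality, and the equality held in both libraries. It is not particular to this locus. The annotation held 32 pairs of miRNA genes on opposite strands, and 31 of them showed it in both libraries, including 5 with no counts.

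Without regard to strand, both rows were at 0 in both libraries. The stranded column had placed 1270 reads of replicate 1 and 1397 reads of replicate 2 at the locus. For the column without strand the files keep a separate total of reads that overlap more than 1 gene, which came to 377691 and 511221. The counts of the locus equal 0.336% and 0.273% of these totals. In the column without strand, miR-486 would therefore be listed at 0 in this muscle. The same held for nearly all genes of this kind: 31 of the 32 opposite-strand pairs were at 0 there in both libraries. These include 5 pairs with no counts in any column.

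**Figure D2:**
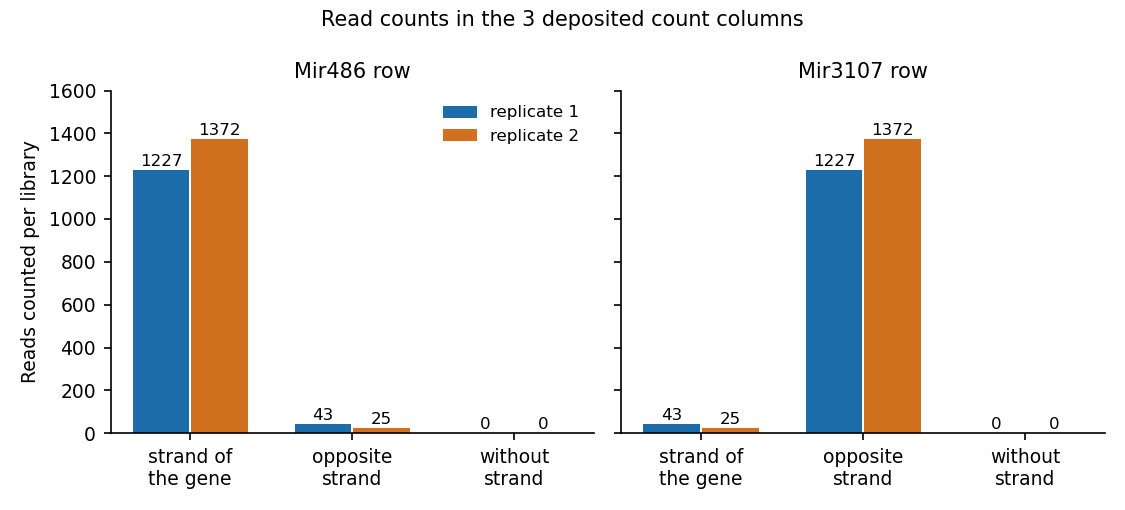
Reads counted for Mir486 (left) and Mir3107 (right) in each of the 3 deposited count columns, with 1 bar per library. The bars of the strand of the gene and of the opposite strand change places between the genes, and both genes are at 0 in the column without strand.

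In CPM, Mir486 stood at 823 in replicate 1 (exact 95% Poisson interval 777 to 870) and 676 in replicate 2 (641 to 713). Its mean was 750 ± 103 CPM (SD, n = 2), which placed it at rank 70 of 2202 by mean CPM. Its rank was 68 in replicate 1 and 73 in replicate 2. This level and rank cover reads placed at 1 locus only. Reads of the mature product shared by both genes are not in them where they aligned to both strands. The level of that product was therefore not measured. A read spans most of a mature miRNA, so CPM was not divided by hairpin length. Mir3107 stood at 28.8 CPM (20.9 to 38.8) and, in replicate 2, at 12.3 CPM (7.98 to 18.2). Its mean was 20.6 ± 11.7 CPM (SD, n = 2), at rank 225, with ranks 209 and 243 in the single libraries. Both values of Mir3107 lay above the level that a count of 0 allows, which is 3 counts, or 2.01 and 1.48 CPM in replicates 1 and 2. Such intervals and limits take in counting error alone, because PCR copies of a molecule are counted as separate reads.

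By level, Mir486 lay within a dense part of the ranking. The next genes above it in mean CPM were Mir20a at 763 ± 111 CPM, Mir342 at 780 ± 246 CPM and Mir674 at 815 ± 97.0 CPM. The next genes below it were Mir27a at 713 ± 226 CPM, Mir154 at 713 ± 24 CPM and Mir320 at 701 ± 52.8 CPM. Mir20a belongs to the proliferation-linked miR-17-92 cluster, Mir27a to the miR-23a cluster and Mir154 to the imprinted Dlk1-Dio3 region. Each of these 6 means differed from that of Mir486 by less than the SD of Mir486, so the order among them is not resolved by 2 libraries. Next to Mir3107 stood Mir7-1 at 21 ± 5.10 CPM and Mir194-2 at 20.3 ± 6.39 CPM, which also differed from it by less than its SD.

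Among muscle miRNAs, Mir486 ranked second to Mir206 in reads placed at 1 locus. Mir206, a miRNA specific to skeletal muscle, had 53367 and 46543 CPM in replicates 1 and 2. Below Mir486 came Mir499, hosted by the slow myosin gene Myh7b, with 335 and 534 CPM. Mir1a-2, a copy of the general striated muscle miRNA miR-1, had 443 and 382 CPM. Mir208b, hosted by the slow myosin gene Myh7, had 91.2 and 224 CPM. Mir486 was above each of the latter 3 genes in both libraries, with no overlap of the values, and Mir3107 was below them in both. Of the 11 listed muscle genes, 10 had a count and Mir133c had none. The genes of miR-1 and miR-133 exist in several copies, and Mir486 and Mir3107 are annotated with the same 5′ arm product. This order therefore does not cover reads that aligned to several loci, those of miR-486 included.

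In reads placed at 1 locus, the red cell list was lower than Mir486 in all but 1 value. Mir15a and Mir16-1, which are expressed widely, had 547 and 749 CPM and 650 and 555 CPM in replicates 1 and 2, so Mir15a was above Mir486 in replicate 2 only. Mir16-2 had 333 and 228 CPM. Mir16-1 and Mir16-2 are copies of miR-16, and reads that aligned to both are in neither row. Mir451a, the miRNA most characteristic of red cells, had 135 and 289 CPM, and its neighbour on the same transcript, Mir144, had 39.6 and 66.1 CPM. Mir486 was above both of these red cell markers in both libraries, while Mir3107 was below both. In a bulk tissue, fewer cells of a type and less RNA per cell cannot be told apart, so the share of Mir486 from muscle fibres and from blood was not tested.

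**Figure D3:**
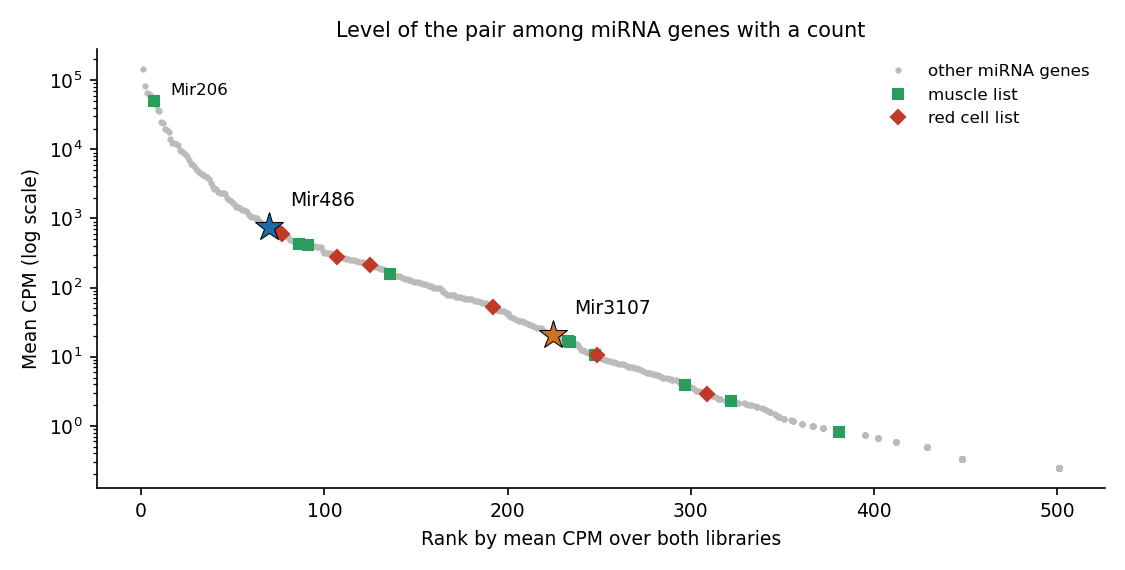
Mean CPM over both libraries on a log scale against rank for each miRNA gene with a count, with Mir486 and Mir3107 as stars, the muscle list as squares and the red cell list as diamonds. Mir486 lies at rank 70 near 750 CPM, below Mir206, and Mir3107 lies at rank 225 near 20.6 CPM.

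How the reads divided between the strands was compared with that at other miRNA genes. At the locus, 96.6% of the counts of replicate 1 were in the Mir486 row (43 of 1270 were not, exact 95% interval 95.5 to 97.5, Clopper-Pearson). In replicate 2 it was 98.2% (25 of 1397 were not, 97.4 to 98.8). The share of Mir3107 was thus 3.39% in replicate 1 and 1.79% in replicate 2, with a mean of 97.4 ± 1.13% (SD, n = 2) for Mir486. The share of Mir3107 was higher in replicate 1. Among the 3 opposite-strand pairs with at least 10 counts in the lesser row, its change between the libraries was the 1 that passed (adjusted p = 0.0291, two-sided Fisher's exact test on read counts, Benjamini-Hochberg), which is 33.3% of the pairs tested. That test compares the reads of 2 libraries and says nothing of a condition.

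The annotation held 32 pairs of miRNA genes that overlap on opposite strands, and 21 of them had at least 100 counts in each library. In those other than Mir486 and Mir3107, nearly all counts were in 1 row. The 4 pairs with the most counts were led by Mir378a, a miRNA of energy metabolism, Mir126a, which marks endothelium, Mir30e and Mir191. Their partners Gm25301, Mir30f and Gm24083 had 0 counts in both libraries, and Mir126b had 0 and 1 counts. For Mir30e the limit that a count of 0 allows for the partner was 0.0278% of the pair in replicate 1 and 0.0168% in replicate 2. The red cell pair of Mir451a and Mir451b, also a hairpin with a gene on its other strand, had 201 and 587 counts for Mir451a and 0 in both libraries for Mir451b.

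Over the 20 other pairs of this depth, the lesser rows summed to 7 of 376364 counts in replicate 1 and 17 of 509749 in replicate 2, or 0.00186% and 0.00333%. The highest share of a lesser row among them was 0.549% in replicate 1 and 0.340% in replicate 2, both for Mir3071, which overlaps Mir136. Its counts were 1 of 182 and 2 of 588. The share of Mir3107 was above that of each of the 20 pairs in both libraries. In replicate 1 the difference passed for 20 of 20 pairs and in replicate 2 for 19 of 20 (two-sided Fisher's exact test on read counts, Benjamini-Hochberg over 40 comparisons). The exception in replicate 2 was the pair of Mir374b and Mir374c, with 0 of 204 counts in the lesser row (adjusted p = 0.0637, Fisher's exact test). The exact 95% interval of that lesser row reached 1.79%, as high as the share of Mir3107. This comparison was added after the counts were seen, and it covers counting error only. How many reads each pair lost to alignment at more than 1 locus was not analysed. The shares may therefore rest on unlike parts of the reads of each pair.

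Mir3107 had the most counts of any lesser row in both libraries. It held 43 of 58 such counts in replicate 1 and 25 of 51 in replicate 2, or 74.1% and 49.0%. Below this depth, 2 pairs had a larger share in at least 1 library. Mir3074-1 held 8 of 46 counts in replicate 1 and 8 of 64 in replicate 2 beside Mir24-1, or 17.4% (7.82 to 31.4) and 12.5% (5.55 to 23.1). Mir219b held 0 of 8 counts in replicate 1 and 1 of 5 in replicate 2 beside Mir219a-2. Both pairs were chosen after their values were seen.

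**Figure D4:**
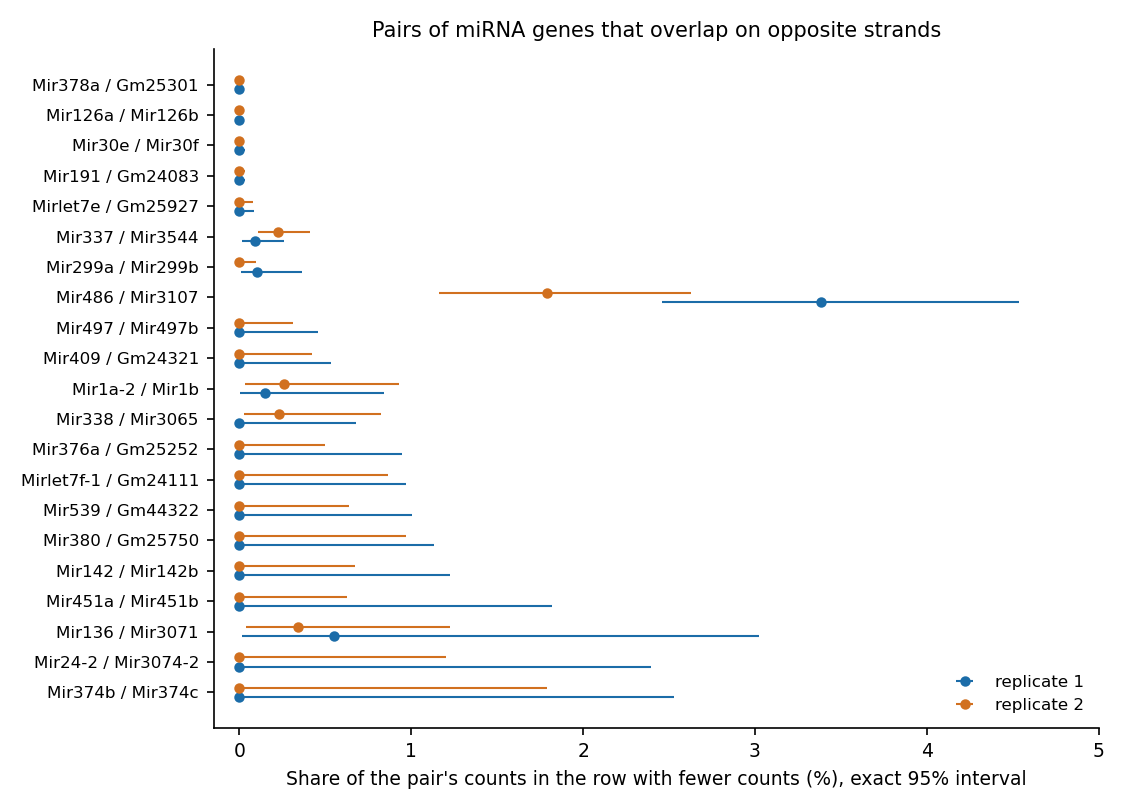
Share of each pair's counts in the row with fewer counts, in percent with exact 95% intervals, for the 21 opposite-strand pairs with at least 100 counts in each library, ordered by counts in replicate 1, with 1 point per library. Mir3107 stands at 3.39% and 1.79%, and each other pair is at 0.549% or less.

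The 2138 miRNA genes without an opposite-strand partner give the background of reads on the opposite strand, measured in the same libraries. In them, 22 reads of replicate 1 and 22 of replicate 2 lay on the opposite strand of the gene, or 0.00198% and 0.00145% of their reads. Such reads were spread over 15 genes. Among the 158 of these genes that reached 100 counts in both libraries, Mir708 had the highest share in both, with 4 of 253 reads in replicate 1, or 1.58% (0.432 to 4.00). In replicate 2 it had 4 of 403 reads, or 0.993% (0.271 to 2.52). The shares of Mir3107 were above these, but the intervals of Mir708 reached them, and this difference was not tested. At lower counts, the liver miRNA gene Mir122, chosen after its values were seen, had 6 of 26 and 2 of 25 reads on its opposite strand.

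Between the libraries, both genes were lower in replicate 2. Of 313 genes with at least 10 counts over both libraries, 58 were lower in replicate 2, the direction of the pair, or 18.5%, and 62 were higher, or 19.8%. In all, 38.3% of the tested genes passed (exact binomial test on counts, Benjamini-Hochberg adjusted p under 0.05). The log2 ratio of replicate 2 over replicate 1, after TMM scaling, was -0.27 for Mir486 (exact 95% interval -0.38 to -0.16, adjusted p = 7.48e-06, exact binomial test). For Mir3107 it was -1.22 (-1.99 to -0.47, adjusted p = 0.00269, exact binomial test). The median over all tested genes was 0.05. Mir3107 thus differed by more than Mir486, as its share of the pair showed. Where the spread between the libraries was included, neither gene passed, with adjusted p = 1 for Mir486 and adjusted p = 0.694 for Mir3107 (edgeR exact negative binomial test). The same libraries supplied this estimate of spread, 0 of 313 genes passed with it, and 15 had an unadjusted p under 0.05.

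Some well-counted genes were lower in replicate 2 by more than Mir486. Among the 179 genes that reached 100 counts in both libraries, 20.1% had a lower ratio. Nearest to it in ratio over the 2 libraries were Mir26a-1 at -0.27, Mirlet7f-1 at -0.26 and Mir542 at -0.28. Mir26a-1 had 109 and 89.7 CPM, Mirlet7f-1 254 and 210 CPM, and Mir542 446 and 364 CPM.

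Muscle and red cell miRNAs did not all go the way of Mir486. By the exact binomial test, 18.5% of all 313 tested genes were lower in replicate 2 and 19.8% were higher. Of 8 tested muscle genes, 2 were lower in replicate 2 (Mir206 at -0.19 and Mir1a-2 at -0.20 on the log2 scale), 2 were higher (Mir208b at 1.31 and Mir499 at 0.69) and 4 did not pass. Their median log2 ratio was 0.55, beside 0.05 over all tested genes. Of 7 tested red cell genes, 3 were higher in replicate 2 (Mir451a at 1.11, Mir144 at 0.75 and Mir15a at 0.46), 2 were lower (Mir16-1 at -0.22 and Mir16-2 at -0.54) and 2 did not pass. Their median was 0.46. All of these calls cover counting error only. With the spread between the libraries included, 0 of 313 genes passed (edgeR exact negative binomial test). The red cell markers Mir451a and Mir144 summed to 174 and 355 CPM in replicates 1 and 2, the reverse of the order of Mir486. The part of red cells in the level of Mir486 or Mir3107 was not tested.

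**Figure D5:**
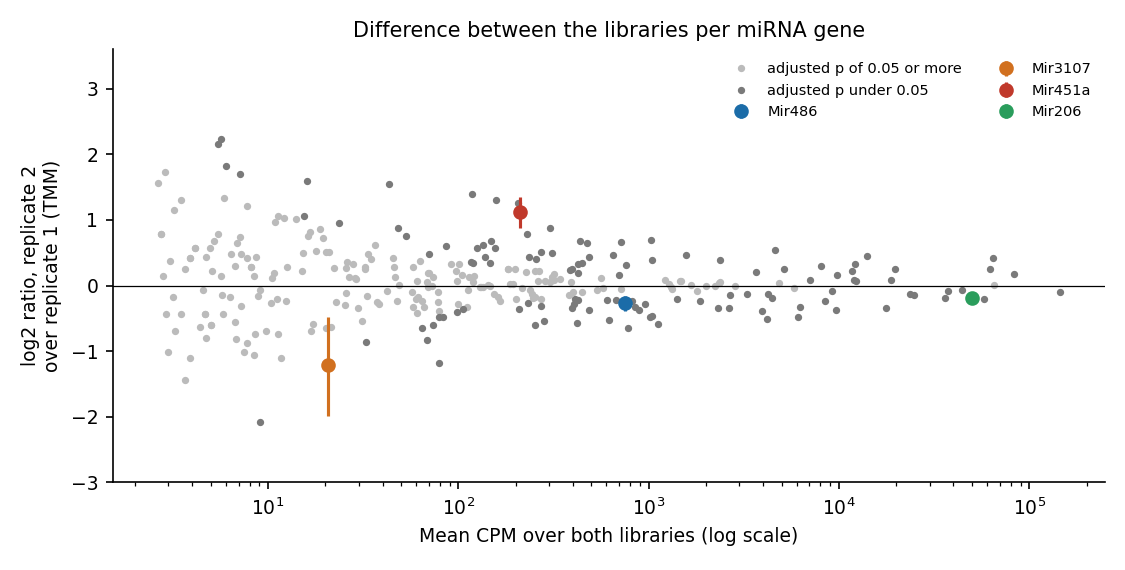
Log2 ratio of replicate 2 over replicate 1 after TMM scaling against mean CPM on a log scale, for the 313 tested miRNA genes, dark where the binomial test passed, with exact 95% intervals for the named genes. Mir486 at -0.27 and Mir3107 at -1.22 lie below 0, as does Mir206, while Mir451a lies above 0.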

How the data were processed

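Small RNA below 30 was selected, as the size range in the labels gives without a unit, and 1 library was made per labelled replicate. Per the deposited description, the authors counted reads per miRNA gene on mm10 with GENCODE M21, as raw counts without normalization. The aligner, counter, trimming and mismatch rules are details not given in the sources used here. From the values, the 3 count columns hold reads of either strand, reads on the gene's own strand and reads on the other strand. The own-strand column was used unless stated. All 2202 gene identifiers matched GENCODE M21, which gave symbols and coordinates.

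CPM was computed on gene counts, leaving out the 4 summary rows: gene counts were 19.9% and 20.6% of all reads, 8.11% and 5.99% were unaligned, and 2.21% and 1.64% fell outside miRNA genes. Libraries were compared gene by gene with a two-sided exact binomial test of their counts given the sum, with TMM library sizes (edgeR 4.0.16, R 4.3.3), over genes with at least 10 summed counts, at an adjusted p of 0.05. The exact negative binomial test used a common dispersion (biological coefficient of variation 18.0% over 267 genes). Intervals are Clopper-Pearson or exact Poisson (scipy 1.17.1). The binomial step was tested on data simulated with counting error alone and scaled by gene totals. The simulation therefore does not cover further spread between libraries. A quasi-likelihood test needs a contrast, which 1 group does not give.

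Genes were named by rule: the pair, the 3 nearest above and below Mir486 and the nearest above and below Mir3107 in mean CPM, the 3 nearest in ratio, up to 4 muscle and 3 red cell genes with Mir451a and Mir144, and the 4 other pairs with the most counts. Others are in the muscle, red cell or marker lists, were picked by value from a stated set, or carry a statement. The genes and lists were chosen with earlier results of these data known. A planned comparison of the hairpins' sequences was not run.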

Additional observations from a re-analysis of the deposited data

How the results depend on the processing

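The level of each gene depended on the count column. Without strand, both Mir486 and Mir3107 were at 0 CPM. In the opposite-strand column, Mir486 was at 20.6 CPM, Mir3107 at 750 CPM and the share of Mir486 at 2.59%, since the rows change places by construction. With all reads as the denominator in place of gene counts, Mir486 stood at 152 CPM and Mir3107 at 4.14 CPM. Without 1 replicate, Mir486 ranged from 676 to 823 CPM, Mir3107 from 12.3 to 28.8 CPM and the share of Mir486 from 96.6% to 98.2%. Mir3107 moved by over 1.5 times between the libraries.

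Both genes stayed lower in replicate 2, past the threshold, with gene totals or DESeq2 size factors and with no filter on low counts. Mir486 also did with at least 100 summed counts, which Mir3107 did not reach. The opposite-strand column, where 26 genes were tested, holds the same counts under the partner's name and so is no separate check, with log2 ratios of -1.39 for the Mir486 row and -0.44 for the Mir3107 row. The edgeR exact negative binomial test gave log2 ratios of -0.27 for Mir486 (adjusted p = 1) and -1.21 for Mir3107 (adjusted p = 0.694), and 0 genes past the threshold in place of 120, with 15 at an unadjusted p under 0.05. It adds the spread between the same libraries. With the other settings the number of genes past the threshold ranged from 110 to 123. No paired analysis was possible because the design has 1 group. The ratio could not be computed without either replicate. The 25 counts of Mir3107 in replicate 2 limit its precision.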
